A study of Rattus norvegicus with 2 samples.

Results

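The genes described here encode haemoglobin and the proteins with which red blood cells make and carry it. A gene belonged to the set if a non-control probe carried a RefSeq messenger RNA accession of 1 of 9 named genes: Hba-a1, Hba-a2, Hbb, Hbq1, Ahsp, Slc4a1, Alas2, Gata1 and Klf1. Accessions matched 8 of the 9, with 1 probe each, out of 13862 genes named in this way on the array. Hbq1 was not matched and has no value. Neural stem cells from the hippocampus of Sprague-Dawley rats of postnatal day 3 were cultured to passage 3 in serum-free medium with bFGF. One group was kept under 2.4% sevoflurane, an inhaled general anaesthetic, for 6 h and the other under 0% sevoflurane (control), after which both spent 24 h in an ordinary incubator at 5% CO2. Total RNA of each group was labelled with Cy3 and hybridised to 1 microarray, so that n = 1 per group, no p-value can be given and no difference has a replicate check. Some labels give only 6 h for the time of sampling, and the sources do not say whether the RNA came from 1 culture or a pool.

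Haemoglobin is built from chains of the alpha and the beta globin families, each chain holding a haem group with an iron atom that binds oxygen. In developing red cells, or erythroblasts, the transcription factors GATA1 and KLF1 switch on the globin genes together with genes of haem synthesis, of the red cell membrane and of globin folding. Brain tissue normally contains red cells in its vessels, and low globin expression has been described in neurons and glia, so these transcripts are used both as a sign of blood and as genes in their own right.

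All 8 matched genes had a higher signal on the sevoflurane array. They covered the alpha and beta chains of haemoglobin (Hba-a1, Hba-a2, Hbb), the globin chaperone Ahsp, the membrane protein Slc4a1, the haem synthesis enzyme Alas2 and the transcription factors Klf1 and Gata1. The differences ran from 1.34 for Gata1 to 4.36 for Ahsp in log2 units, with a median of 3.35. Each was at least 2-fold (1 log2 unit), the size used as a threshold throughout. Over all 16047 measured probes, those well above background on both arrays, 33.1% were at least 2-fold higher and 11.9% at least 2-fold lower. Gata1 was past that size in only some ways of scaling the arrays, whereas the other 7 genes were past it in all of them.

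The regulatory sequence before 4 of the genes is shown because these genes were higher together and textbook erythroid factors read short motifs there. The 250 bases before the RefSeq start are given 5′ to 3′ from assembly GRCr8, all on the minus strand: Hba-a1 at chr10:15842581-15842830, Hba-a2 at chr10:15829139-15829388, Hbb at chr1:167663722-167663971 and Klf1 at chr19:40158652-40158901. Capitals mark the GATA motif (TGATAA, where A may stand for the first T and G for the last A) and the CACCC motif (CCNCNCCC, where N is any base), each on either strand.
Hba-a1: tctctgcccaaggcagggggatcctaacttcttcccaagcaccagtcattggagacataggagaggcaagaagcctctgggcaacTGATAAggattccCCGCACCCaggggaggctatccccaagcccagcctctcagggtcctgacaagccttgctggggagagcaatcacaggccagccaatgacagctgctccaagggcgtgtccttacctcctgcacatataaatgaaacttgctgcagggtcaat
Hba-a2: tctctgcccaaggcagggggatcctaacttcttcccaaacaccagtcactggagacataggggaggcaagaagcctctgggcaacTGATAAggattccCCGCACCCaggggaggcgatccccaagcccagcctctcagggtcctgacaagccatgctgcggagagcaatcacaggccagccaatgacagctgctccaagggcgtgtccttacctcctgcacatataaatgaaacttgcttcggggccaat
Hbb: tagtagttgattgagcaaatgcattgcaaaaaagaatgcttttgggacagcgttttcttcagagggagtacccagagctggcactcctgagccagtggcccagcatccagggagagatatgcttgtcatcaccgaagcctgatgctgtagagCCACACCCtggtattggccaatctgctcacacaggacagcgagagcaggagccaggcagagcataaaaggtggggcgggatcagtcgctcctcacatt
Klf1: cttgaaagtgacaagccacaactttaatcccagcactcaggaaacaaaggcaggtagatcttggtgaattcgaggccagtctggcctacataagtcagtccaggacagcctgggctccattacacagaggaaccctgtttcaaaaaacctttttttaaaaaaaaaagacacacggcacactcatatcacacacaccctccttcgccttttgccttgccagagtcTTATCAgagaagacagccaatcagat
The windows of Hba-a1 and Hba-a2 were the same at 241 of 250 positions (96.4%). Both held TGATAA at -165 to -160, counted back from the start, and CCGCACCC at -152 to -145. Hbb held CCACACCC at -98 to -91, and Klf1 held TTATCA, which is TGATAA on the other strand, at -26 to -21.

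The RefSeq promoter table matched 6 of the 9 genes. A GATA motif lay in 4 of these 6 windows (Hba-a1, Hba-a2, Klf1 and Alas2), against 27.0% of all 33469 windows of the same length. The CACCC motif also lay in 4 of 6 (Hba-a1, Hba-a2, Hbb and Gata1), against 42.8%. Its stricter form CCACACCC, 1 case of the looser motif, lay only in Hbb among the 6, against 2.84%. The core motif of NFE2, another erythroid factor (TGAGTCA), was in 0 of the 6 and in 4.05% of all windows. TGACNNNGC, the motif of the oxidative stress factor NRF2, was found in Hba-a1 at -11 to -3, and in 10.1% of all windows. For Gata1 and Alas2 the window did not adjoin the outer end of the gene in the gene table, so their windows may belong to an inner start. The windows of Hba-a1 and Hba-a2 are near-identical and held the same GATA and CACCC matches, so they are not independent cases. Neither count of 4 of 6 is therefore read as an enrichment. A match describes letters and is not evidence of binding.

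The alpha chain genes Hba-a1 and Hba-a2 gave nearly the same difference. The processed signal is the spot intensity after Feature Extraction's own background correction, and ± gives that program's error for the spot, which is technical. Hba-a1 (NM_013096) had a signal of 1810.0 ± 181 with sevoflurane and 331 ± 33.1 in the control. Hba-a2 (NM_001007722) had 1505 ± 151 and 269 ± 26.9. Both spots were thus brighter with sevoflurane by far more than their technical error. With each array set relative to its 75th percentile, the differences were 3.40 ± 0.20 for Hba-a1 and 3.43 ± 0.20 for Hba-a2. The genes are near-identical copies and the probe sequences were not used here, so the probes may detect both transcripts.

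Hbb, the adult beta chain gene, had a very bright spot on both arrays, the control included. Its signal (NM_033234) was 41993 ± 4199 with sevoflurane and 16170.0 ± 1617 in the control, where the raw spot was 634 times its local background. Neither spot was saturated. The difference was 2.32 ± 0.20, and 1.64 after the intensity-dependent correction, which removes the trend of the difference with level. Measured probes of the brightest of 10 equal groups by level, to which Hbb belongs, had a median difference of 0.18, and 16.9% were at least 2-fold higher.

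Ahsp, which binds free alpha chains and keeps them soluble until they pair with beta chains, had the highest difference of the set. Its signal was 1149 ± 115 with sevoflurane and 108 ± 10.9 in the control, a difference of 4.36 ± 0.21. It kept a difference of 3.26 or more in each of the 8 other settings listed for single genes.

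Slc4a1, the anion exchanger known as band 3 that trades chloride for bicarbonate across the red cell membrane, had signals of 1808 ± 181 and 295 ± 29.6. Its difference was 3.56 ± 0.20. Alas2, the erythroid form of the first enzyme of haem synthesis, had signals of 2901 ± 290.2 and 564 ± 56.4 and a difference of 3.31 ± 0.20. Ahsp, Slc4a1, Alas2 and both alpha genes lay in groups 6 to 8 of 10 by level, where the median of all measured probes was between -0.16 and -0.04 and between 11.3% and 20.4% were at least 2-fold higher. These 5 genes therefore stood well above most probes of like brightness.

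Of the transcription factor genes, Klf1 differed about as much as Hbb and Gata1 had the smallest difference of the set. Klf1, which drives adult beta globin expression, had signals of 371 ± 37.1 with sevoflurane and 135 ± 13.6 in the control, a difference of 2.40 ± 0.21. Its level group had a median of 0.29, with 28.8% at least 2-fold higher. Gata1, the master regulator of the red cell lineage, was dim, at 47.6 ± 5.28 and 36.1 ± 4.07. Its difference was 1.34 ± 0.23, but 0.14 both with quantile-normalized values and in the deposited table, 0.18 after the intensity-dependent correction, 0.25 after median scaling and 0.40 without scaling. Probes as dim as Gata1 had a median of 0.97, and 49.2% of them were at least 2-fold higher. The median signals of 9 of 10 control probes for E1A, a sequence foreign to the rat, were between 2.42 and 24.4 on the sevoflurane array and between 1.80 and 6.36 on the control array. The tenth such probe stood apart, at 1187 with sevoflurane and 4.18 in the control. Signal on foreign probes was thus also higher with sevoflurane, and its part in the Gata1 value and in the other values was not tested.

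**Figure D1:**
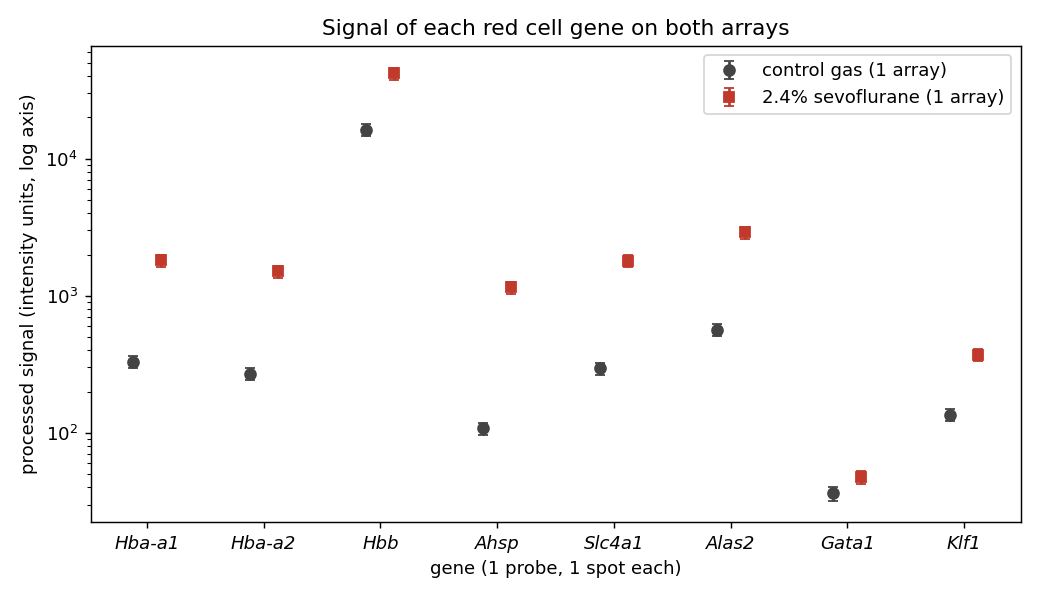
Processed signal (intensity units, log axis) of the 8 genes on the control array (circles) and on the sevoflurane array (squares), with bars for the scanner program's error of the single spot. The sevoflurane spot is higher for each gene, from 47.6 against 36.1 for Gata1 to 1149 against 108 for Ahsp.

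**Figure D2:**
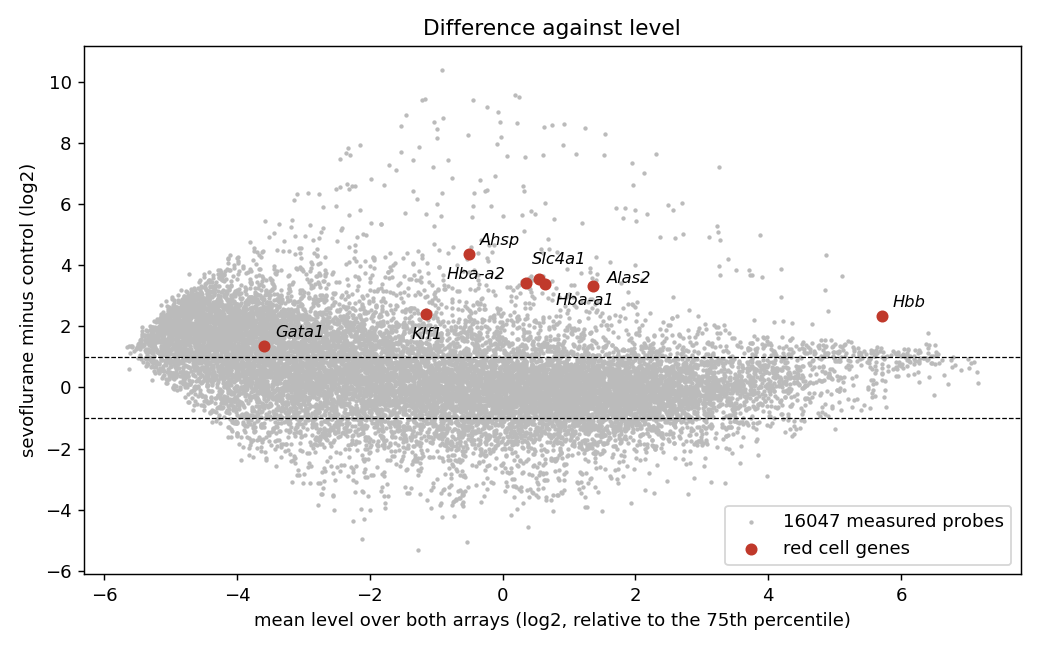
Difference (sevoflurane minus control, log2) against mean level (log2, relative to each array's 75th percentile) for 16047 measured probes in grey and the 8 red cell genes in red, with dashed lines at 2-fold. Grey points lie higher at the dim end, where Gata1 sits, and Ahsp, Slc4a1, Alas2 and the alpha globin genes lie far above points of like level.

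How large the differences appear depends on how the arrays are scaled, since the upper quartile of the signal was 359 with sevoflurane and 692 in the control. Without any scaling, 7 of the 8 genes were still at least 2-fold higher, where 15.1% of measured probes were higher and 36.1% lower. The intensity-dependent correction also left 7 (17.1% higher and 17.2% lower), as did quantile normalization (15.6% and 21.6%) and median scaling (12.6% and 40.8%). The deposited log2 value table, for which no normalization method is stated in the sources, had 7 as well (15.6% and 21.2%). Normexp, a background correction that replaces the one of the scanner program, kept all 8 (27.5% and 8.76%). Gata1 was the gene lost in each setting with 7. In the deposited table Ahsp stood at 10.7 with sevoflurane and 6.63 in the control, Hba-a2 at 11.1 and 7.74, and Gata1 at 5.46 and 5.33. The median over all measured probes was 0.37 with the scaling used. It was 0.45 after normexp, 0.01 after the intensity-dependent correction, -0.10 for the quantile-normalized and for the deposited values, -0.57 without scaling and -0.72 after median scaling, and the differences of the genes stand relative to these shifts.

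**Figure D3:**
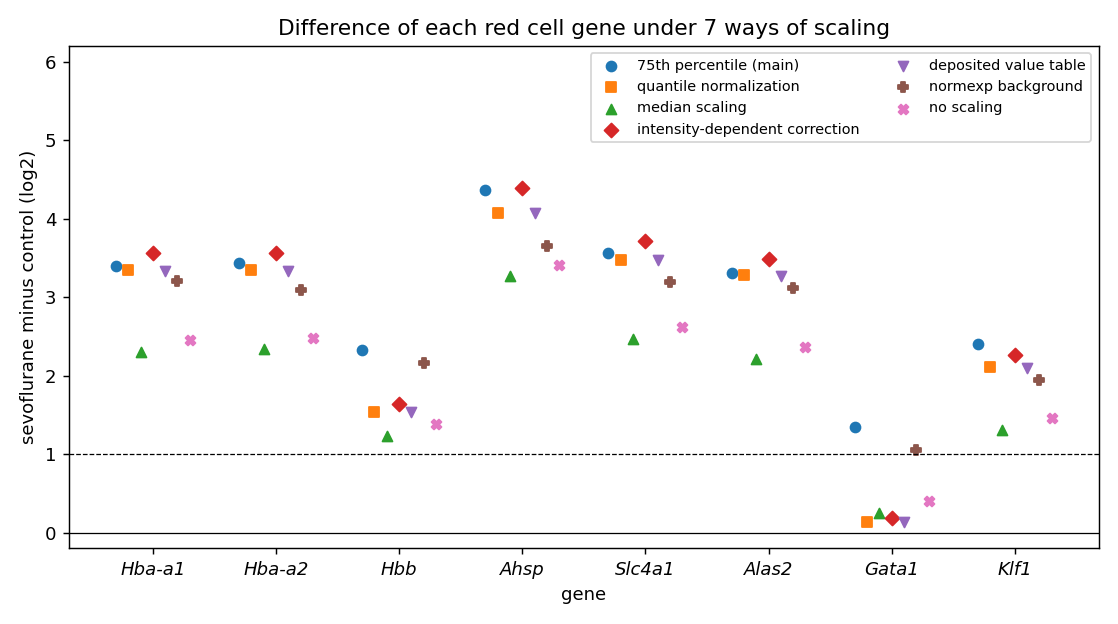
Difference (sevoflurane minus control, log2) of the 8 genes under 7 ways of scaling or background correction, 1 symbol each, with a dashed line at 2-fold. All symbols of Ahsp lie between 3.26 and 4.39, while those of Gata1 fall from 1.34 to 0.14.

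Other red cell globin genes were higher as well. Probes matched 6 of 9 listed genes, and all 6 were at least 2-fold higher, against 28.2% of 10028 measured genes, whose median was 0.27. The third alpha gene, Hba-a3, was at 3.98 (signals 358 and 43.7). Of the beta family, Hbb-bs was at 2.95, and the embryonic genes Hbe1 and Hbg1 were at 2.50 and 2.34. Hbb-b1 and Hbe2, which the naming rule did not take and which were named after their values were seen, were at 2.31 and 1.97. The signals of Hbb-b1, 42473 and 16474, were nearly those of Hbb, and the probes may detect transcripts of both copies. Across the globins, the 3 alpha genes (3.40 to 3.98) lay above the 6 beta family genes (1.97 to 2.95). This grouping was also made after the values were seen. The ranges did not overlap after the intensity-dependent correction (3.53 to 3.57 against 1.62 to 2.66) or quantile normalization (3.34 to 3.42 against 1.53 to 2.62). Nor did they after normexp (2.89 to 3.20 against 1.69 to 2.78) or in the deposited table (3.33 to 3.42 against 1.53 to 2.62). Each globin had 1 spot per array, so median scaling, no scaling and other treatment of spots shift all of them alike. Those settings could not make the ranges overlap. Globins of other tissues differed among themselves. Ngb, of neurons, was at 1.41 (0.45 after the correction) and Cygb, of fibroblasts and other cells, at -0.87 (-1.40 after the correction). The muscle gene Mb was well above background only with sevoflurane, with signals of 24.2 and 1.91, the former within the range of the foreign E1A probes. With the scaling used it was at least 6.46-fold higher, a bound that sets the bright array against the higher of the gene's own signal and the lowest signal well above background on the dim array. Without that bound, the log2 difference of Mb was 4.61 with the scaling used, 3.67 without scaling and 1.26 in the deposited table.

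Among 7 measured genes of the red cell membrane and its skeleton, 4 were at least 2-fold higher and 0 lower, and the median was 1.80. The shares over all measured genes were 28.2% and 11.2%. Epb42, which links band 3 to the skeleton, was at 4.05, the Rhesus antigen gene Rhd at 3.53, the beta spectrin gene Sptb at 2.72 and the glycophorin gene Gypc at 1.80. Xk was well above background only with sevoflurane, and at least 9.12-fold higher with the scaling used, but its log2 difference was 2.06 in the deposited table and less after normexp. Rhag was not well above background on either array. The probes of Add2, an adducin shared with neurons, disagreed, at -0.85 for the brighter and 3.74 for the other.

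Haem synthesis genes that all cells use differed less than Alas2. Of 6 measured genes 2 were at least 2-fold higher and 0 lower (median 0.74), against 28.2% and 11.2% of all measured genes. Urod was at 1.95, while Alad and Fech were at 0.95 and 0.54. In mitochondria, Slc25a37, the mitoferrin that brings iron to erythroid haem synthesis, was at 2.82, Abcb10 at 1.35, Slc25a39 at 1.11 and Clpx, which activates the ALA synthases, at 0.97. The list of mitochondrial supply had 3 of 8 genes past 2-fold, all higher, against 28.2% of all measured genes, and 1 higher and 2 lower after median scaling. Without scaling, only Urod of the former list and Slc25a37 of the latter were at least 2-fold higher. Genes that break down, bind or move haem counted 6 of 9 at least 2-fold higher and 0 lower, or 4 higher once the trend with level was removed. Hmox1, which opens the haem ring, was at 4.19, the transporter gene Flvcr2 at 2.18, the haem-binding protein gene Hebp1 at 2.04 and the biliverdin reductase gene Blvrb at 1.95. The plasma haem scavenger Hpx and the macrophage haemoglobin receptor Cd163 were not well above background on either array.

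Transcription factors of red cells and blood were mixed. Of 15 measured genes 7 were at least 2-fold higher and 0 lower (median 0.42), but the intensity-dependent correction gave 5 higher and 4 lower. Before that correction, 28.2% of all measured genes were at least 2-fold higher and 11.2% lower. Nfe2, an activator of globin genes, was at 3.59 (signals 382 and 61.1; 3.25 after the correction). Foxo3 was at 2.60, Lyl1 at 2.52 and Bach1, a haem-sensing repressor, at 2.46 (1.18, 1.52 and 0.91 after the correction). Of partners of GATA1, named after their values were seen, Tal1 was at -0.70, Ldb1 at -0.98 and Lmo2 at -0.14, whereas Gfi1b was at 2.21. Gata2, a related GATA factor also named after its value was seen, was at -0.79. The other red cell genes counted 6 of 11 higher and 0 lower (median 1.03), or 3 and 1 after the correction. Alox15, which acts on membranes of maturing red cells, was at 3.08, the carbonic anhydrase gene Car2 at 2.82, Hemgn at 2.27 and Trim10 at 1.81. The red cell pyruvate kinase gene Pklr, well above background only with sevoflurane, was at least 8.96-fold higher with the scaling used, but its log2 difference was 1.39 after normexp and 1.56 after quantile normalization. Car1 was not well above background on either array. The 5 red cell lists joined were globins besides the 8 genes, membrane, haem synthesis, transcription factors and other genes. They had 25 of 45 measured genes at least 2-fold higher and 0 lower (median 1.39). All measured genes had 28.2% higher and 11.2% lower (median 0.27). The 0 lower in the joined lists depends on the scaling. Unscaled, the membrane and haem synthesis lists each had 1 gene at least 2-fold lower, the transcription factors 5 and the other red cell genes 4. The other globins still had 6 of 6 higher and 0 lower.

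Markers of other cells were read beside these values, where 28.2% of all measured genes were at least 2-fold higher and 11.2% lower. In RNA of a whole culture, a change in the number of cells of a type and a change in RNA per cell cannot be told apart. All 12 neural stem cell markers with a probe were measured on both arrays, among them Sox2 (signals 1993 and 6835) and Nes (777 and 616), and 3 of them were at least 2-fold higher and 2 lower (median -0.16), or 0 and 6 without scaling (median -1.11). The receptor phosphatase gene Ptprz1 was at -2.88 and the glutamate transporter gene Slc1a3 at -1.71. Of 15 measured microglia and macrophage markers, 10 were at least 2-fold lower and 2 higher, and their summed signal was 2609 with sevoflurane and 14487 in the control. Summed signals here and below are of processed signal before scaling, whereas the counts use scaled values. Ctss was at -3.54, C1qa at -3.45, Tyrobp at -3.25 and Cd53 at -2.93. Of 11 neutrophil markers with a probe, 2 were measured on both arrays, with summed signals of 39.0 and 19.6, and 5 only with sevoflurane. At least 2-fold higher were 2 of the 2 measured, but 0 after quantile normalization and 0 after the intensity-dependent correction. The neutrophil genes S100a8 and Ctsg were not well above background on either array. Of 7 platelet markers with a probe 4 were measured. At least 2-fold higher were 2 of them and lower 1 (0 and 1 with the trend removed), with Gp9 at 1.89 (-0.30 after quantile normalization), Gp1bb at -1.69, Gp5 at 1.40 and Pf4 at 0.92, and summed signals of 556 and 1980. Gp1bb alone gave 281 and 1750 of these sums, so the lower platelet sum with sevoflurane rests on that gene. Of mast cell markers 2 were measured, Ms4a2 at 2.90 and Kit at 0.31, with summed signals of 184 and 164. Lymphocyte markers were measured for 7 of 17 genes, 5 of them higher (4 after the correction), with Prf1 at 4.75, Cd3g at 4.12, Pax5 at 2.50 and Cd3d at 1.96, and summed signals of 972 and 474. Prf1 had signals of 134 and 9.59, where the lowest control signal well above background was 7.22, and was at 2.26 after normexp. Of 6 measured endothelial markers, 5 were higher (only 1 after the correction), led by Cldn5 at 2.65, Flt1 at 2.61, Emcn at 2.32 and Plvap at 2.21, with summed signals of 278 and 184. All 5 measured pericyte markers were at least 2-fold higher (2 of 5 without scaling), led by Rgs5 at 3.39 and Cspg4 at 2.39, with summed signals of 2044 and 1241. Rgs5 was also dim in the control (signals 52.1 and 9.56) and was at 1.57 after normexp. Well above background only with sevoflurane were 7 lymphocyte, 3 mast cell, 2 pericyte, 1 endothelial and 1 platelet marker. Another endothelial marker was so only in the control. The part of these cell types in the red cell genes was not tested. The 2 scans were made on separate days, and scan day and treatment cannot be told apart.

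**Figure D4:**
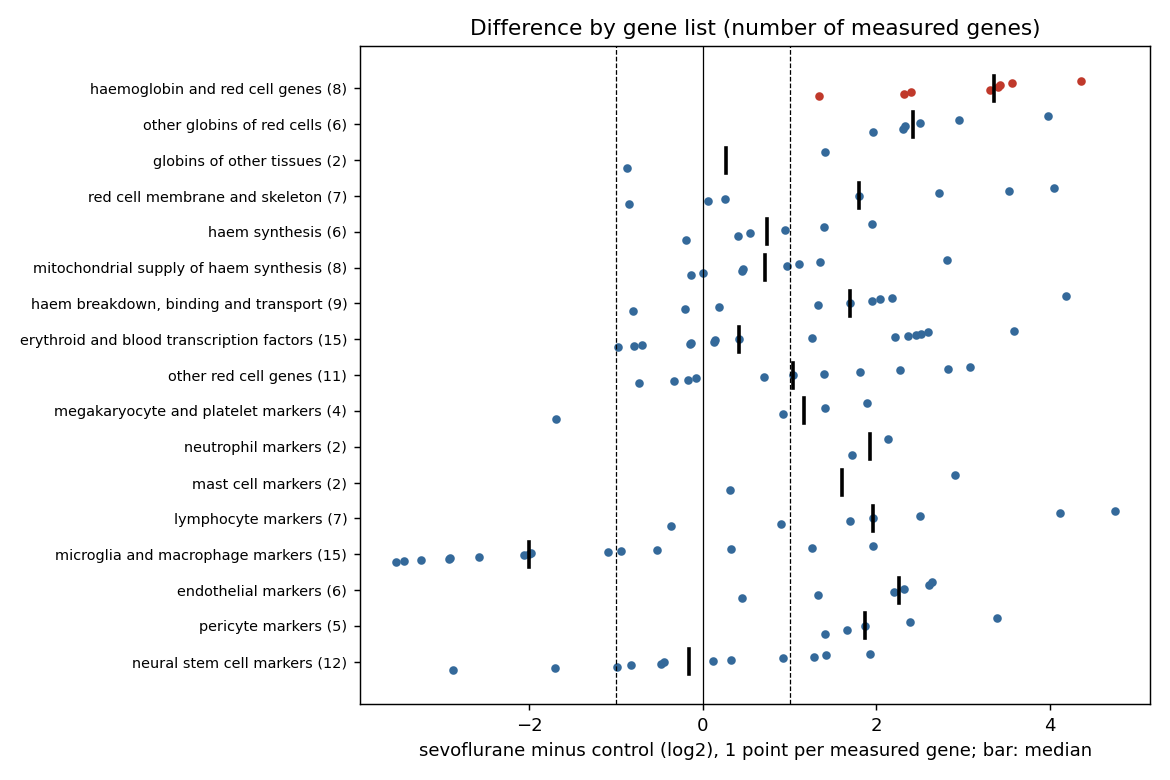
Difference (sevoflurane minus control, log2) of each measured gene by list, 1 point per gene, with a bar at the list's median and dashed lines at 2-fold. The haemoglobin and red cell genes (red) lie between 1.34 and 4.36, other globins between 1.97 and 3.98, and microglia and macrophage markers mostly below 0.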

How the data were processed

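Total RNA of 1 sevoflurane and 1 control sample was measured on 1-colour arrays. The deposited files give a linear intensity for every spot. Per the file headers, they come from Feature Extraction 11.0.1.1, which corrected the background of its processed signal without scaling one array to the other, and the array design refers to build rn4. Set against the scanner signals, the deposited value table holds log2 values, and how the authors normalized them is not stated in the sources.

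Control spots and spots called non-uniform or population outliers were left out (521 and 580 of 42136). From the log2 processed signal, averaged over the spots of each probe, the array's 75th percentile over 24629 usable probes was subtracted. Accessions without versions were looked up in a RefSeq gene table (GRCr8), which named 14274 of 15323 RefSeq mRNA probes; where a gene had several measured probes, the brightest stood for it. A probe was measured if most of its spots were well above background on both arrays. The calculations were tested on simulated data. Python 3.11.15, statsmodels 0.14.6, R 4.3.3 and limma 3.58.1 were used. The number of arrays limits the precision.

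The genes, the lists and the threshold of 2-fold were chosen with earlier results of these data known. Named genes were the 8 matched genes, up to 4 measured genes per list with the largest absolute difference, genes with a bound, and the 5 genes nearest to the median difference of the 8; of these, 2 genes are not reported here. Alternatives were quantile and median scaling, an intensity-dependent (lowess) correction, the deposited table, other treatment of spots and probes and, chosen after seeing the data, normexp on the median signal (offset 50) and no scaling.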

Additional observations from a re-analysis of the deposited data

How the results depend on the processing

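The median difference of the 8 genes, 3.35, was 2.26 after median scaling and, in the settings chosen after seeing the data, 3.10 after normexp and 2.41 without scaling. It stayed within 0.20, the typical technical error of a difference, in the 7 other settings, and no single gene changed sign. Each of the 8 genes had 1 probe with 1 spot per array. Keeping flagged spots, the median of spots, all usable probes and the mean over probes could therefore hardly move this median. Where it could move, it was 3.30 in the deposited table, 3.52 with the trend removed and 3.31 with quantile-normalized values. The count at least 2-fold higher was 8 or 7 in all settings, and Gata1 was the gene lost. Of 64 single values under alternatives, 33 moved by less than their technical error and 31 by more. The 33 include every value with flagged spots kept and every value with the median of spots, which could hardly move. The joined red cell lists had between 17 (median scaling) and 31 (all usable probes) genes at least 2-fold higher. Background correction on the mean signal was not run, since the files used here hold the median signal. Dim probes such as that of Gata1 moved with the setting, and the single array per group limits every value. No paired analysis was possible because each group has 1 array and shares only replicate number 1.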

Other observations

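The nearest measured genes on the chromosome were read as well, a choice made after the values were seen. Not all are adjacent: distances ran from 6.0 kb (Dnase2 from Klf1) to 1330 kb (RragB from Alas2). For each red cell gene, the 3 nearest measured genes on each side in the gene table were taken, leaving out the 8 genes and the other red cell globins listed. Of 42 such neighbours, 14 were at least 2-fold higher and 0 lower, where 28.2% of all measured genes were higher and 11.2% lower. Once the trend with level was removed, 6 were higher and 6 lower. Their median was 0.17, or -0.04 with the trend removed. Beside the alpha globin genes, Axin1, a Wnt pathway scaffold, was at 0.10, Arhgdig at 0.26 (-1.20 after the correction), Fam234a at -0.19, the DNA repair gene Mpg at -0.15 and Nsg2 at -0.54, and the interleukin receptor gene Il9r at 1.45 (0.15 after the correction). All 6 neighbours of Hbb were at least 2-fold higher, from 1.08 to 2.41, and 3 of 6 after the correction. They were the olfactory receptor genes Or51l4, Or52z1, Or51b6 and Or51i2, besides Ubqln5 at 1.85 and Hbbl1 at 2.27, which by its name is a beta-like globin that the lists did not hold. Beside Ahsp, Cox6a2, the heart and muscle form of a cytochrome c oxidase subunit, was at 6.50, and the co-chaperone gene Bag3 was at 2.30. None of the 6 neighbours of Alas2 was 2-fold higher or lower, with differences between -0.83 and 0.37. Usp51, which lies 1140 kb from Alas2, was at -1.13 after the correction.

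Of 10028 measured genes, 221 (2.20%) had a difference at or above the median of the 8 red cell genes. The 5 named genes closest to that median over the 2 arrays were Nccrp1, Or2b11, Lyzl1, Or4z4 and Cd52, all within 0.01 log2 units of it, and with 2 arrays this says nothing of a shared pattern.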
